A study of Mus musculus with 22 samples.

Results

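The nuclei described here are those that the authors' annotation labels n29.Nr5a1/Adcyap1, a neuron type of a published arcuate and median eminence atlas whose defining genes are those of the ventromedial hypothalamic nucleus (VMH). Members were all nuclei whose cell type label begins with n29, which gave 2136 of the 24965 nuclei of the single-nucleus RNA-seq (snRNA-seq) data (8.56%) and 11.0% of the 19416 neuronal nuclei. The deposited table holds more nuclei than the study's text describes, all of them inside the authors' limits on genes per nucleus, and every share here has the deposited table as its denominator. The study injected fibroblast growth factor 1 (FGF1) once into the lateral ventricle (icv) of male ob/ob mice, which lack leptin and are obese and diabetic, at an age of 11 weeks. Each treated mouse received 3 µg of FGF1, and each control received the phosphate-buffered saline vehicle and was pair-fed (PF) to the intake of FGF1-injected mice. The 4 groups were Day 1 icv FGF1 (n = 3 mice), Day 1 vehicle (n = 3), Day 5 icv FGF1 (n = 2) and Day 5 vehicle (n = 2), all without leptin, and each library came from 1 mouse. Every statement on ob/ob mice is therefore one on mice without leptin, and no lean mice or freely fed controls enter any comparison below.

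The VMH is a dense glutamatergic nucleus beside the third ventricle, next to the arcuate nucleus. Its dorsomedial and central neurons are marked by the nuclear receptor SF-1, encoded by Nr5a1, which is needed for the nucleus to form, and many of them release the peptide PACAP, encoded by Adcyap1. SF-1 neurons are known for raising hepatic glucose output when active and for roles in energy expenditure and in the counter-regulatory response to low glucose. FGF1 binds all FGF receptors, which signal through the MAPK/ERK cascade to ETS transcription factors such as Etv5, and the Sprouty and Spred proteins feed back on that cascade.

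The n29 label held against Nr5a1. In CPM, the unique molecular identifiers (UMIs) of a gene scaled to a fixed total of the type's own UMIs, Nr5a1 averaged 25.6 ± 6.34 in n29 nuclei (SD, n = 10 mice) and 2.31 ± 1.47 in all other neurons of the same mice, a ratio of 11.1. The next highest of the neuron groups compared was the glutamatergic type Glu5, with a mean of 6.95. That mean was raised by Day 5 vehicle mouse 38, which gave only 11 Glu5 nuclei. Because these nuclei were labelled from their own expression, this and the other comparisons of levels between n29 and other types are descriptions, without a test. Nr5a1 sits at chr2:38692656-38714542 on the minus strand (GRCm38). At least 1 Nr5a1 UMI was found in 7.63% of n29 nuclei (163 of 2136, median depth 2728 UMIs), in 0.772% of Glu5 nuclei (median 2537.5 UMIs) and in 0.3% of nuclei of the GABA types (median 2844 UMIs). With every nucleus thinned to 1000 UMIs the shares were 2.76%, 0.162% and 0.0647%. The second gene of the label, Adcyap1, was not particular to these nuclei, averaging 27.8 CPM in n29 against 16.2 in other neurons and 46.1 in the type Glu6.

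Other genes known from the VMH pointed the same way. Fezf1, the transcription factor that acts with SF-1 in VMH development, averaged 16.9 CPM against 3.66 in other neurons, a mean raised by Day 1 FGF1 replicate 1 (below). The cannabinoid receptor gene Cnr1 averaged 62.8 ± 17.3 CPM against 27.9, and Bdnf, a neurotrophin, 35.4 against 20.7 but 48.7 in Glu5. Ldb2, a LIM-domain cofactor, averaged 510 CPM against 250. Pdyn, the dynorphin precursor, averaged 13.8 CPM against 5.51. Dlk1 ran the other way, at 16 CPM in n29 and 52.0 in other neurons.

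The nuclei were glutamatergic by their transporter. Slc17a6, the vesicular glutamate transporter VGLUT2, averaged 147 CPM against 81.9 in other neurons, which include GABAergic ones, and was higher still in Glu4 (199) and Glu5 (168). Gad2, the GABA-synthesizing enzyme, averaged 53.2 CPM in n29 and 179 in other neurons, and Slc32a1, the vesicular GABA transporter, 7.38 against 27.8. A Slc17a6 UMI was seen in 35.2% of n29 nuclei and 9.91% of nuclei of the GABA types, and a Gad2 UMI in 11.3% and 53.2%. The level of Esr1, the estrogen receptor of the ventrolateral VMH, was 29.5 CPM in n29, below the 45.2 CPM of other neurons.

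Beyond the markers, the genes with the highest ratio to other neurons among genes of at least 20 CPM were, after Nr5a1, Gpr149 (233 against 36.4 CPM), an orphan G protein-coupled receptor, Hydin (185 against 30.3), a gene of motile cilia, Steap3 (22.1 against 3.82), a metalloreductase, Rai14 (52.6 against 9.58), an actin-binding protein, and Megf11 (209 against 38.1), a cell-surface protein of regular neuronal spacing. Nptx2, a secreted pentraxin that gathers AMPA receptors at synapses, averaged 45.8 ± 41.2 CPM against 8.37, with a spread between mice that follows treatment (below).

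The receptor side of FGF1 signalling was present. Fgfr1 averaged 80.8 ± 30.6 CPM in n29 and 41.1 ± 7.74 in other neurons. In Glu6, the next highest of the neuron groups compared, it averaged 65.6. The n29 mean includes the Day 1 FGF1 mice, which were the highest, at 124, 133 and 116 CPM (scaled over all mice). The other mice were at 46.4 to 76.0, so the mean is not a level without FGF1. Whether n29 stood above Glu6 without FGF1 was not tested. Fgfr2 was at 353 CPM against 387. Mapk3, the kinase ERK1, averaged 25.8 CPM against 14.7. Fgf1 itself averaged 29.1 CPM against 45.2, with 112 in Agrp neurons. Lepr, the leptin receptor, was at 32.1 CPM, close to the 31.4 of other neurons and far from the 508 of Agrp neurons.

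**Figure D1:**
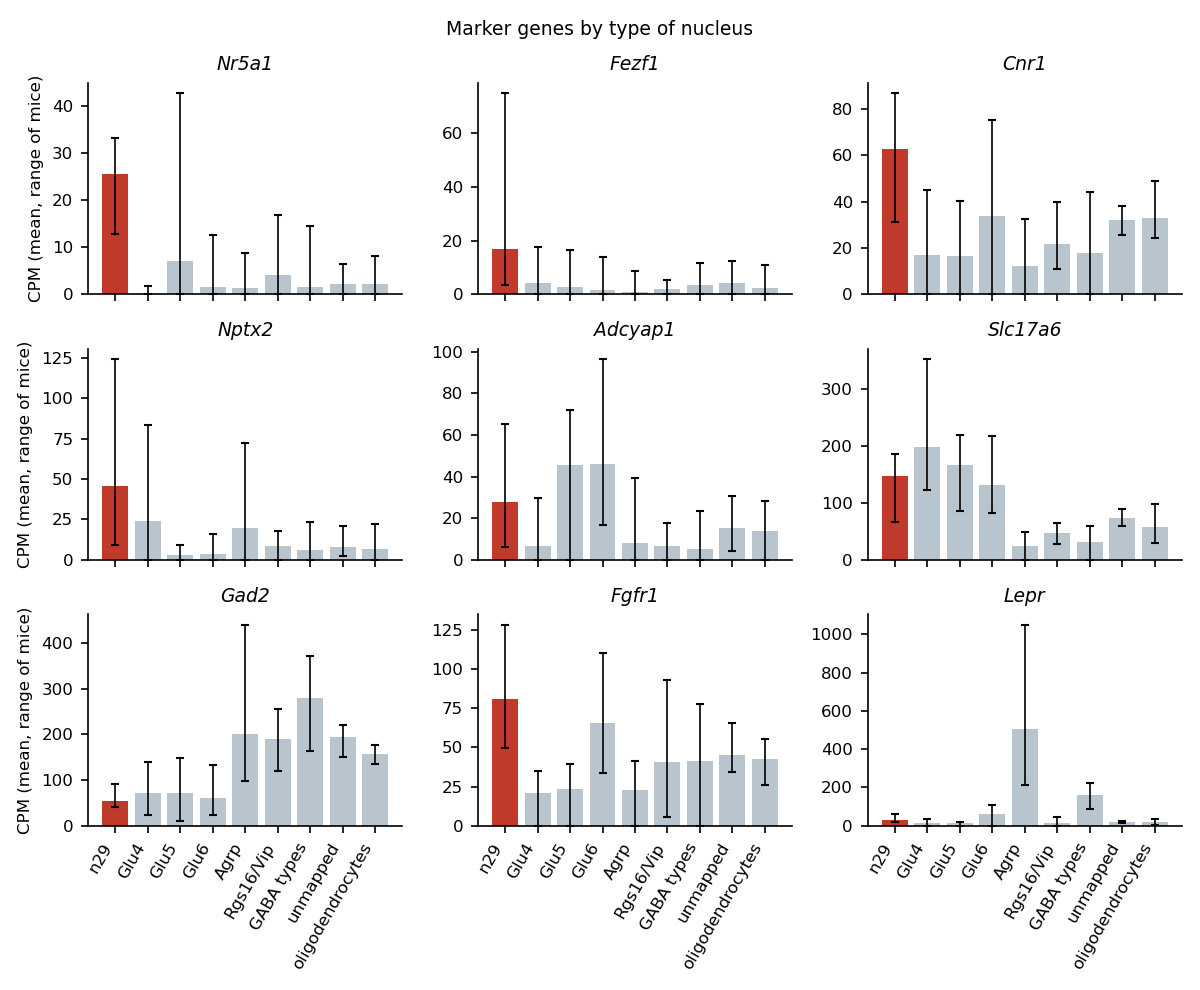
Mean level of 9 genes (CPM of each type's own UMIs, linear axes from 0) in n29 nuclei and 8 other groups of nuclei. Bars are means over mice and whiskers run from the lowest to the highest mouse. Nr5a1 stands at 25.6 CPM in n29 and 6.95 in Glu5, where 1 mouse reached 42.7, while Adcyap1 and Slc17a6 are as high or higher in other glutamatergic types.

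Membership rests on a label that the authors transferred with over 75% confidence. Confidence in n29 ran from 0.750 to 1 (median 0.953), and 1097 of the nuclei were at 0.95 or above. Outside the cut lay 3009 nuclei whose best match was n29 at lower confidence, of which 2180 were called unmapped, 354 Glu5 and 328 Glu6. The boundary of the type is thus wide, and counts with the 2180 unmapped nuclei added are given with the alternatives. The others were not added in any fit.

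The 10 mice gave between 71 and 497 n29 nuclei each. In the Day 1 FGF1 mice n29 took 9.99%, 7.94% and 7.00% of all nuclei, and in the Day 1 vehicle mice 11.6%, 8.26% and 8.05%. The 2 groups overlapped, with means of 8.31 ± 1.53% and 9.30 ± 1.99% (difference −0.99 percentage points, exact two-sided permutation test, p = 0.5, where 3 against 3 cannot go below 0.1). At Day 5 the shares were 7.75% and 7.52% after FGF1 and 8.33% and 12.0% after vehicle (difference −2.53 percentage points, exact p = 0.333, the smallest that 2 against 2 allows). The Day 1 difference turned to 0.155 without vehicle replicate 1. A share of nuclei depends on the punch, so a smaller share and a punch placed further from the VMH cannot be told apart.

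Depth was uneven. Summed n29 UMIs ran from 283085 to 1171876 per mouse and the median per nucleus from 2013 to 3633. Day 1 FGF1 replicate 1 stood apart, with the most nuclei (497), the lowest median depth (2013 UMIs) and a median of 1.98% ribosomal protein UMIs, against 0.693% to 1.09% in the other 9 mice. It was the FGF1 mouse of batch 3 in the authors' metadata, where each Day 1 batch held 1 FGF1 and 1 vehicle mouse. Over all nuclei 318 barcodes stood in more than 1 library, and among n29 nuclei 1 barcode did.

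**Figure D2:**
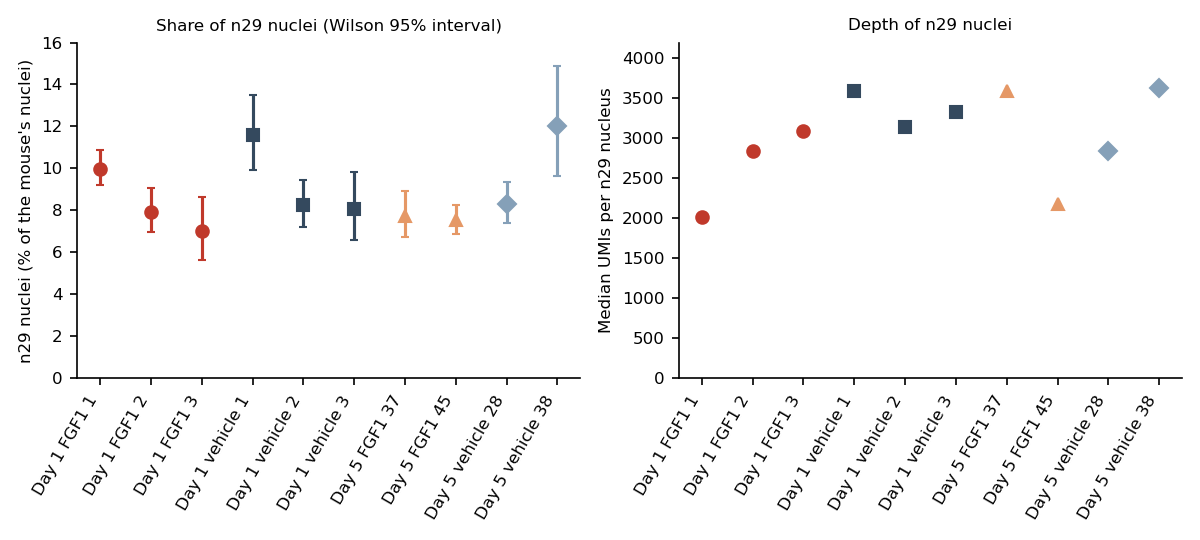
Share of n29 among all nuclei (%, left, with Wilson 95% intervals that cover counting error only) and median UMIs per n29 nucleus (right), by mouse and group. Shares lie between 7.00% and 12.0% with the groups overlapping at Day 1, and Day 1 FGF1 replicate 1 has the lowest median depth, 2013 UMIs.

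The Day 1 comparison asked what icv FGF1 changed in these neurons 24 h after injection, apart from the lower food intake that both groups shared. UMIs were summed per mouse and tested over mice with edgeR. Of 8407 genes tested, 10 were differentially expressed genes (DEGs) at a false discovery rate (FDR) under 0.05, or 0.119% of genes, 7 higher (0.0833%) and 3 lower (0.0357%). Levels below are CPM scaled by TMM within the day, given for FGF1 replicates 1, 2 and 3 and then vehicle replicates 1, 2 and 3. In all 10 genes the 3 FGF1 mice and the 3 vehicle mice did not overlap, which was true of 15.5% of all genes tested. The same direction within each of the 3 batches follows from that and is no further check.

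Among the genes that rose were an ETS factor and a pentraxin. Etv5 (chr16:22381309-22439719), an ETS transcription factor induced by FGF signalling, was at 70.3, 53.2 and 63.8 CPM after FGF1 and 13.0, 6.11 and 12.6 after vehicle. All FGF1 mice were thus at least 4 times the highest vehicle mouse, and the log2 fold change was 2.61 (SE 0.40, FDR = 0.0243). Nptx2 (chr5:144545902-144557478) stood at 111, 132 and 82.6 CPM against 20.5, 9.17 and 22.0. Its groups were far apart (log2 fold change 2.74, SE 0.37, FDR = 0.0135), and its log2 difference within the 3 batches ran from 2.33 to 3.17.

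Pgm2l1, Ubash3b and Zmym1 also rose. Pgm2l1 (chr7:100227394-100278868), which makes glucose-1,6-bisphosphate, the cofactor of phosphoglucomutases, was at 250.3, 277 and 240.3 CPM after FGF1 and 87.5, 88.6 and 97.5 after vehicle. The 3 values of each group lay close together, and the fold change was 2.82 (log2 1.49, SE 0.23, FDR = 0.0243). Ubash3b, a phosphatase that dampens tyrosine kinase receptors, was at 79.5, 86.7 and 82.6 CPM against 20.5, 29.0 and 18.9 (log2 1.82, SE 0.32, FDR = 0.0476). Zmym1, a zinc finger gene, was at 628, 255 and 447 CPM against 70.7, 58.1 and 34.6 (log2 2.99, SE 0.36, FDR = 0.0135).

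Most feedback and ETS genes of the MAPK/ERK cascade were too low to test. Of 14 genes in that list 4 passed the low-count filter, Etv5 and Spred3 only through the FGF1 mice, so their count and median are not read as support. Etv5 was called, and the 4 had an unadjusted p under 0.05 in the higher direction, as did 5.88% of all genes tested (4.84% were lower). Spred3, a Sprouty-related inhibitor of the cascade, was at 32.0, 48.7 and 41.3 CPM after FGF1 and 3.72, 12.2 and 3.15 after vehicle (log2 2.46, FDR = 0.0685). Spred2, of the same family, was at 85, 154 and 135 CPM against 42.8, 41.3 and 50.3 (log2 1.47, FDR = 0.0765), and Spred1 had a log2 difference of 1.37 (FDR = 0.122). These 3 did not pass the threshold. Their groups did not overlap, as in 15.5% of all genes tested.

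The 10 members under the filter are given as values alone, in CPM scaled over all 10 mice. Etv4, the sister factor of Etv5, was at 24.7, 20.7 and 10.3 after FGF1 and 5.30, 1.40 and 2.79 after vehicle. Spry4, a Sprouty inhibitor, was at 7.05, 4.43 and 10.3 after FGF1 and listed at 0 in all 3 vehicle mice. Dusp6, the phosphatase that inactivates ERK, was at 5.29, 5.90 and 6.84 against 1.77, 1.40 and 0. Spry2 was at 9.70, 11.8 and 13.7 against 1.77, 1.40 and 8.36. Il17rd, another inhibitor of FGF signalling, had the opposite order, at 1.76, 2.95 and 6.84 CPM after FGF1 and 14.1, 7.01 and 8.36 after vehicle. Etv1 was at 7.05, 1.48 and 0 against 8.84, 19.6 and 2.79. Spry1, Dusp1, Dusp4 and Dusp5 were at 0 to 4.43 CPM in every Day 1 mouse. Summed over the list, n29 nuclei of the FGF1 mice held 3.27 to 4.17 UMIs of these genes per 10000, against 1.26 to 1.36 in the vehicle mice, and other neurons held 2.84 to 3.26 against 1.59 to 2.13. At Day 5 the n29 sums were 1.09 to 1.54 after FGF1 and 0.997 to 1.16 after vehicle.

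**Figure D3:**
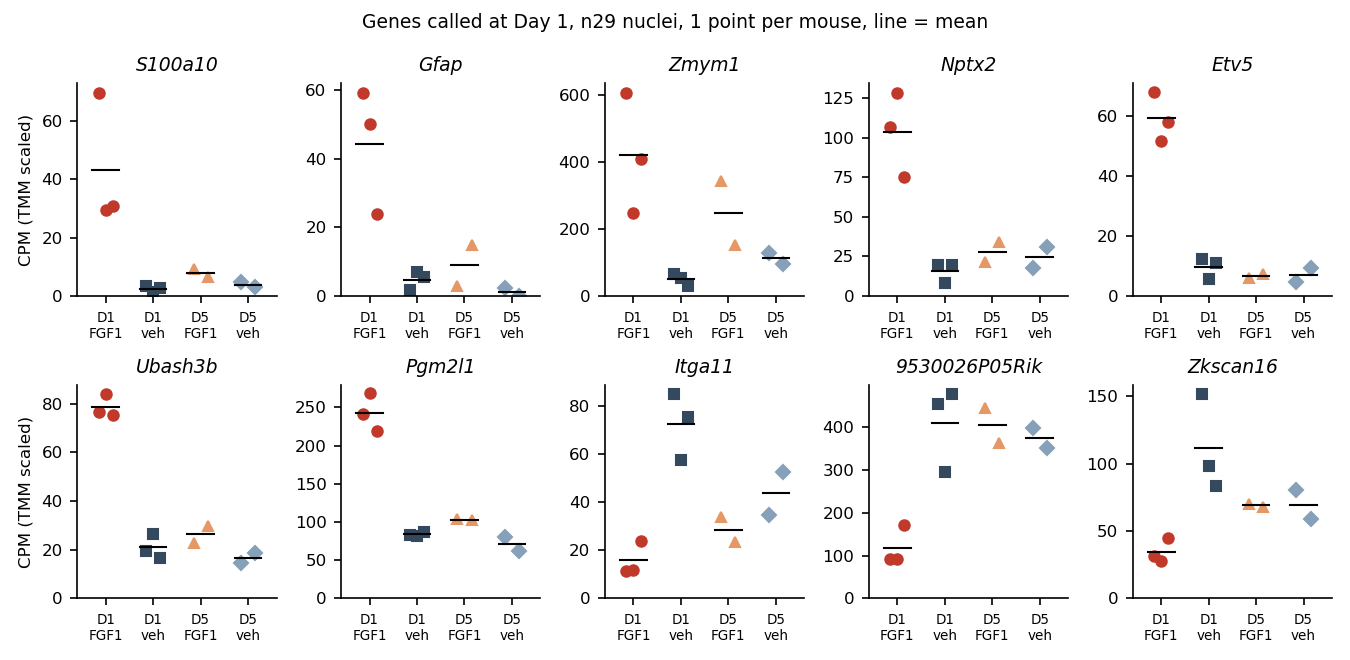
Levels of the 10 genes called at Day 1 in n29 nuclei (CPM scaled by TMM over all 10 mice, linear axes from 0), with a point per mouse and a line at the group mean for Day 1 and Day 5. At Day 1 the points of the FGF1 and vehicle mice do not overlap in any of the 10 genes, 7 higher and 3 lower after FGF1.

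The 2 other genes that rose are known from reactive glia. Gfap (chr11:102887336-102900912), the intermediate filament of astrocytes, was at 61.2, 51.7 and 26.3 CPM after FGF1 and 1.86, 7.64 and 6.29 after vehicle (log2 3.17, SE 0.52, FDR = 0.0330). S100a10 (chr3:93555080-93564643), an annexin partner raised in reactive astrocytes, was at 72.2, 30.4 and 33.8 CPM against 3.72, 1.53 and 3.15 (log2 4.06, SE 0.60, FDR = 0.0243, from 108 and 4 UMIs). Of the 10 genes of the glial response list 3 were tested, all of which passed the low-count filter only through the FGF1 mice, so their count is not read as support. S100a10 alone was called, where 0.119% of all genes were. Vim, an intermediate filament gene, had a log2 difference of 3.68 (FDR = 0.105) and Serpina3n, a protease inhibitor, of 3.02 (FDR = 0.0788).

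Of 9 other types with enough nuclei in all 6 Day 1 mice, the FGF1 mice were above the vehicle mice without overlap in 8 for S100a10 and in 5 for Gfap, and below them in 0. The share of all genes without overlap in those types was not computed (in n29 it was 15.5%), so these counts are descriptions and not read as support. The groups overlapped for Gfap in the GABA types, tanycytes, ependymal cells and oligodendrocytes, and for S100a10 in the GABA types. In CPM of each type's own UMIs, Gfap in Day 1 astrocytes was at 2649, 2671 and 1781 after FGF1 and 352, 343 and 692 after vehicle, in tanycytes at 679.8, 785 and 579.6 against 60.5, 114 and 799, and in unmapped neurons at 59.1, 44.0 and 32.0 against 2.79, 3.79 and 7.47. The glial response list summed to 1.19 to 2.65 UMIs per 10000 in n29 nuclei of FGF1 mice and 0.1 to 0.151 in vehicle mice, where 4 of its 10 genes were at 0 in every mouse. In other neurons the sums were 1.84 to 3.38 and 0.193 to 0.472. The astrocyte marker list as a whole, of which 3 of 6 genes were tested and Gfap alone, which passed the filter only through the FGF1 mice, was called, was at 1.35 to 1.44 UMIs per 10000 in FGF1 mice and 1.04 to 1.63 in vehicle mice, and the tanycyte and ependymal list at 0.318 to 0.366 and 0.605 to 0.795. The part of free RNA from glia in these n29 values was not tested. Leaving out the nuclei with a UMI of the astrocyte, tanycyte, ependymal or glial response genes, which removes Gfap and S100a10 themselves, also gave 10 calls, among them 4 of the genes above. As some of these genes rose after FGF1, treatment bears on which nuclei are left out, and 202 of 497, 97 of 201 and 37 of 78 remained in the FGF1 mice and 84 of 144, 105 of 187 and 50 of 87 in the vehicle mice. These were Zmym1 (log2 3.13, FDR = 0.0203), Nptx2 (2.80, FDR = 0.0234), Pgm2l1 (1.69, FDR = 0.0203) and 9530026P05Rik (−1.84, FDR = 0.0203). Etv5 (2.45, FDR = 0.0682), Ubash3b (1.37, FDR = 0.219), Itga11 (−2.11, FDR = 0.108) and Zkscan16 (−1.70, FDR = 0.11) no longer passed.

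The 3 genes that fell were 9530026P05Rik, Itga11 and Zkscan16. 9530026P05Rik (chr6:92940329-93272979, plus strand) is an antisense long noncoding RNA that overlaps Adamts9 on the opposite strand. It was at 95, 95.8 and 188 CPM after FGF1 and 480.1, 322 and 541 after vehicle (log2 −1.88, SE 0.31, FDR = 0.0330). All vehicle mice were above all FGF1 mice by a wide margin. Whether reads were counted by strand is not stated, so its reads and those of Adamts9 (log2 0.87, FDR = 0.514) may not be separated. Itga11, a collagen-binding integrin subunit, was at 11.9, 12.2 and 26.3 CPM against 89.3, 62.6 and 84.9 (log2 −2.39, SE 0.38, FDR = 0.0302). Itga11 would not have passed the low-count filter on the FGF1 mice alone, so its call is not read as support. Zkscan16, a zinc finger gene, was at 32.9, 28.9 and 48.8 CPM against 160.0, 107 and 94.4 (log2 −1.78, SE 0.31, FDR = 0.0476).

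The number of Day 1 calls depended on single mice and on how batch was treated. It was 101 without FGF1 replicate 1 and 0 without any 1 of the 3 vehicle mice, with 578 to 1018 genes at an unadjusted p under 0.05 in those 3 fits, and with batch as a block 2 of 9163 genes (0.0218%) were called, Nptx2 and Zmym1. Within the 3 batches the log2 differences ran from 2.03 to 3.38 for Etv5, from 1.36 to 1.66 for Pgm2l1 and from −2.51 to −0.78 for 9530026P05Rik, each at an FDR of 0.088 with the batch block. The simulated data at this size returned 81% of 4-fold changes and 10% of 2-fold changes, and called 11 of 8207 unchanged genes, so most changes of 2-fold would not have been seen.

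The identity genes of the type did not pass the test at Day 1. Nr5a1 was at 32.0, 35.0 and 22.5 CPM after FGF1 and 27.9, 26.0 and 34.6 after vehicle, with overlapping groups (log2 0.09, FDR = 0.957). Adcyap1 was at 68.5, 41.1 and 11.3 against 14.9, 26.0 and 6.29 (log2 1.38, FDR = 0.396), again overlapping and highest in FGF1 replicate 1. Slc17a6 (log2 0.48, FDR = 0.649), Esr1 (0.50, 0.705) and Lepr (−0.53, 0.674) also did not pass. Of the 10 VMH marker genes, 7 were tested and none was called (2 higher and 1 lower at an unadjusted p under 0.05), with 6 of the 7 positive and a median log2 difference of 0.48 against 0.01 over all genes. Summed over the list, n29 held 9.19 to 9.95 UMIs per 10000 after FGF1 and 5.49 to 7.54 after vehicle, and at Day 5 8.49 to 8.93 after FGF1 and 9.19 to 9.27 after vehicle. In other neurons the Day 1 sums also did not overlap, at 4.77 to 5.24 after FGF1 and 3.78 to 4.48 after vehicle. The highest of the 7 tested genes was Bdnf (log2 1.45, FDR = 0.161) and the lowest Cnr1 (log2 −0.78, FDR = 0.380).

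The FGF receptors and their ligand did not pass the test either. Fgfr1 was at 129, 137 and 128 CPM after FGF1 and 80.0, 64.2 and 66.1 after vehicle. The groups did not overlap, but the log2 difference of 0.90 had an FDR of 0.205. Fgf1 had a log2 difference of 1.38 (FDR = 0.173), and 41.1, 59.3 and 45.1 CPM against 22.3, 16.8 and 15.7. Of 15 genes tested of the FGF receptor and adaptor list, 2 had an unadjusted p under 0.05 in the higher direction and 0 in the lower. Of all genes tested 5.88% and 4.84% did. The median was −0.11 against 0.01 over all genes.

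Among the secreted peptides and transmitter genes, 13 were tested and Nptx2 was called, where 0.119% of all genes were. Nptx2 would not have passed the low-count filter on the vehicle mice alone. At an unadjusted p under 0.05, 5 were higher and 1 lower, where 5.88% and 4.84% of all genes were. The median log2 difference was 0.69 against 0.01 over all genes. Cpe, the carboxypeptidase that trims neuropeptides, was at 412, 581 and 496 CPM after FGF1 and 246, 254 and 258 after vehicle (log2 0.97, FDR = 0.105). Pcsk2, the prohormone convertase, had a log2 difference of −0.53 (FDR = 0.399). None of 19 hormone and peptide receptor genes was called (2 higher and 1 lower at an unadjusted p under 0.05). Hcrtr2, the orexin receptor 2, was at 99.6, 100.3 and 128 CPM against 46.5, 35.1 and 56.6 (log2 1.25, FDR = 0.105).

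The ion channels, synaptic receptors and adhesion genes, which make up the excitable part of the neuron, held no called gene at Day 1. Counts in brackets are of genes at an unadjusted p under 0.05, where 5.88% of all genes tested were higher and 4.84% lower. None of 29 potassium channel genes passed (2 higher, 2 lower), with Kcnd3 the highest (log2 1.06, FDR = 0.117). None of 23 sodium, calcium and HCN channel genes passed (3 higher, 0 lower), nor of 33 glutamate and GABA receptor genes (2 higher, 3 lower), in which Gabrg1, a GABA-A receptor subunit, was at 99.6, 105 and 93.9 CPM after FGF1 and 348, 185 and 211 after vehicle (log2 −1.31, FDR = 0.0788). None of 47 synaptic adhesion genes passed (2 higher, 0 lower), and 35 of the 47 had a positive log2 difference. The lists for glucose sensing (9 tested, 0 higher, 1 lower), glucocorticoid and stress response (8 tested, 1 and 1), circadian clock (9 tested, 1 and 0) and SF-1 lineage transcription factors (11 tested, 0 and 1) also held none. Of 3 immediate early genes tested (1 higher, 0 lower) Nptx2, also of the peptide list, was called, where 0.119% of all genes were. Nptx2 would not have passed the low-count filter on the vehicle mice alone, so its call is not read as support for either list. The lists of ventrolateral VMH genes (4 tested, 0 and 0), GABA neuron genes (2 tested, 0 and 1), other hypothalamic peptides (7 tested, 0 and 0), pan-neuronal genes (4 tested, 0 and 1), oligodendrocyte (2 tested, 0 and 0) and microglia markers (2 tested, 0 and 0) held no call, and no marker of oligodendrocyte precursors or vessels passed the low-count filter.

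The level of the transcription factor Fezf1 rested on 1 mouse. It was at 75.8 CPM (scaled over 10 mice) in Day 1 FGF1 replicate 1 and at 5.90 and 10.3 in the other 2 FGF1 mice, with 3.53, 8.41 and 11.1 in the vehicle mice. At Day 5 it was at 35.9 CPM in vehicle mouse 28 and 3.09 in vehicle mouse 38. Those 2 mice also had the highest ribosomal share of their days, and its part in the result was not tested.

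The Day 5 comparison asked what differed in n29 nuclei later after the same single injection. With 2 mice a group, 26 of 9243 genes were called (0.281%), 1 higher (0.0108%) and 25 lower (0.27%). Non-overlap of the groups was found in 38.5% of all genes. None of the 7 Day 1 genes that could be tested at Day 5 was called. Nptx2 had a log2 difference of 0.30 (FDR = 0.894), Pgm2l1 of 0.42 (FDR = 0.664), 9530026P05Rik of 0.01 (FDR = 0.993) and Zmym1 of 0.99 (FDR = 0.561). S100a10, Gfap and Etv5 were too low at Day 5 to be tested.

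The only gene that rose was Pde10a, a cyclic nucleotide phosphodiesterase. It was at 365 and 350.3 CPM in FGF1 mice 37 and 45 and at 179 and 238 in vehicle mice 28 and 38 (TMM within the day, log2 0.82, SE 0.18, FDR = 0.0489).

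Of the 25 genes that fell, the 10 with the largest changes are given. Cisd1, Ndufb2, Guk1, Hcrt and Mrpl12 among them would not have passed the low-count filter on the FGF1 mice alone. This may also hold for Gadd45g, Apoa1bp, Fam57b and Edf1, whose levels are not given here. The number of genes that fell is therefore not read as support. Nnat, the imprinted proteolipid neuronatin, was at 96.2 and 121 CPM after FGF1 and 711 and 369.6 after vehicle, the mice of each group far apart from those of the other (log2 −2.34, SE 0.28, FDR = 0.0190). Cisd1, an iron-sulfur protein of the outer mitochondrial membrane, was at 12.0 and 6.30 CPM against 79.1 and 23.1 (log2 −2.75, FDR = 0.0207). Ndufb2, a subunit of respiratory complex I, was at 16.5 and 7.20 CPM against 75.5 and 23.1 (log2 −2.35, FDR = 0.0489). Of the named genes that fell, Nnat overlaps Blcap, Ndufb2 overlaps Braf, Fam57b overlaps Aldoa and Mrpl12 overlaps Gm16755, each on the opposite strand. Guk1, a guanylate kinase, had a log2 fold change of −2.76 (FDR = 0.0489), Gadd45g, a stress and DNA repair factor, of −2.30 (FDR = 0.0401), Apoa1bp of −2.55 (FDR = 0.0383), Fam57b of −2.16 (FDR = 0.0386) and Edf1 of −2.15 (FDR = 0.0489). The 25 genes ran from −4.33 to −0.91.

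Hcrt and Mrpl12 rested on few UMIs. Hcrt, the orexin precursor of lateral hypothalamic neurons, was at 1.5 and 0.9 CPM after FGF1 and 32.4 and 13.2 after vehicle, from 2 and 31 UMIs, and the ratio of its UMI rates was 0.0401 (95% counting interval 0.00465 to 0.158, which covers counting error only). Mrpl12, a mitochondrial ribosomal protein, had 3 and 31 UMIs and a ratio of 0.0601 (0.0118 to 0.193). Hcrt is not a gene of VMH neurons. In the Day 5 vehicle mouse with the higher value it was also found at 29.2 CPM in unmapped neurons and 457 CPM in oligodendrocytes, against 0.94 and 0 in the other vehicle mouse. The part of free RNA in its n29 values was not tested.

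Other values moved with these Day 5 calls. Of the 25 genes that were lower after FGF1, 19 were higher in vehicle mouse 28 than in vehicle mouse 38, 10 of them at least 2 times, and 9 of the 10 named were at their highest Day 1 level in FGF1 replicate 1. Vehicle mouse 28 had the highest median ribosomal share of Day 5 (1.09%) and Day 1 FGF1 replicate 1 that of Day 1 (1.98%). The part of this in the result was not tested. In oligodendrocytes Nnat was at 116 and 108 CPM in the Day 5 FGF1 mice and 509 and 387 in the vehicle mice, so its difference was not confined to n29. Each mouse moved the count, which was 177 without vehicle mouse 38, 69 without vehicle mouse 28, 65 without FGF1 mouse 37 and 10 without FGF1 mouse 45, while batch as a block gave 166 (1.8%). Some tools and fits ended most or all of the calls. DESeq2 gave 4, DESeq2 with batch 1, and edgeR with all 4 groups fitted together 0 (333 genes at an unadjusted p under 0.05). Others did not, with 32 calls under RLE scaling, 20 at a label confidence of at least 0.95 and 37 without nuclei with glial UMIs.

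**Figure D4:**
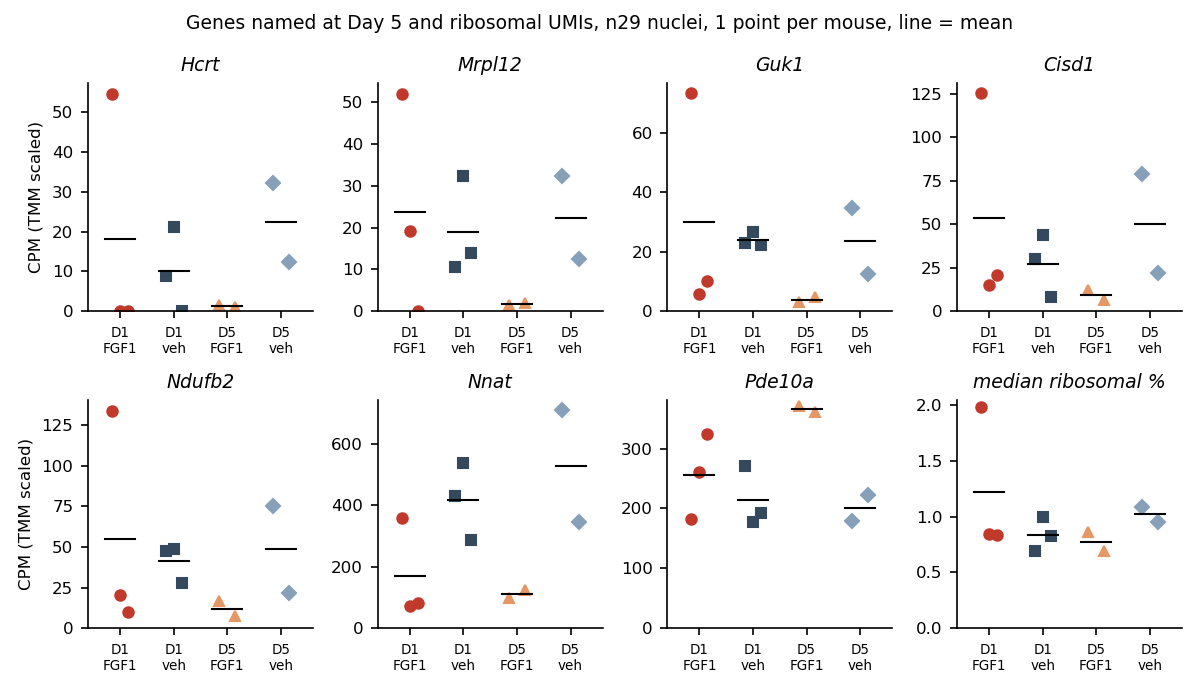
Levels of 7 genes called at Day 5 in n29 nuclei (CPM scaled by TMM over all 10 mice) and the median ribosomal share of their UMIs (%), with a point per mouse and a line at the group mean in all 4 groups. Nnat is low in both Day 5 FGF1 mice, and several of the genes are highest in the mice with the highest ribosomal share, vehicle mouse 28 at Day 5 and FGF1 replicate 1 at Day 1.

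Among the gene lists at Day 5, Hcrt was the only called member, and it would not have passed the low-count filter on the FGF1 mice alone. Synaptic adhesion genes had no call in 47, but 15 were at an unadjusted p under 0.05 in the higher direction and 0 in the lower, where all genes tested had 3.61% and 5.47%, and 41 of the 47 had a positive log2 difference, with a median of 0.24 against 0.01 over all genes. Values were also positive in 27 of 33 glutamate and GABA receptor genes, 20 of 21 sodium, calcium and HCN channel genes, 21 of 29 potassium channel genes and 4 of 4 pan-neuronal genes, but in 1 of 8 other hypothalamic peptides, 3 of 7 VMH markers, 1 of 4 ventrolateral VMH genes, 9 of 19 hormone and peptide receptors and 7 of 13 peptides and transmitters. Nr5a1 was at 30.1 and 27.0 CPM after FGF1 and 13.2 and 19.8 after vehicle (log2 0.89, FDR = 0.563), and Esr1 at 12.0 and 18.9 against 26.4 and 56.1 (log2 −1.17, FDR = 0.381). Neither passed, with groups that did not overlap, as in 38.5% of genes. Adcyap1, Slc17a6, Lepr and Fgfr1 had log2 differences of −0.78, −0.04, 0.07 and −0.00.

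Whether the effect of FGF1 differed between the days was tested directly over all 10 mice. edgeR called 0 of 10053 genes (631 at an unadjusted p under 0.05, 6.28%), and DESeq2 called 1. For 9530026P05Rik the Day 5 minus Day 1 difference of log2 fold changes was 1.91 (SE 0.40, FDR = 0.557), for Nptx2 −2.50 (SE 0.61, FDR = 0.735) and for Etv5 −2.53 (SE 0.81, FDR = 0.735). A call at Day 1 and none at Day 5 is thus not a shown difference between days, and in simulated data this test found 36% of 4-fold differences.

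The Day 1 effect was then compared between n29 and other neurons of the same mice, with the mouse as a block. Against unmapped neurons, the largest and best-counted group (11986 nuclei), 169 of 12657 genes had a different FGF1 effect (1.34%), 99 more positive in n29 (0.782%) and 70 more negative (0.553%). Against Glu5 the count was 66 of 8437 (0.782%, 26 or 0.308% and 40 or 0.474%), and against Agrp neurons 85 of 6837 (1.24%, 38 or 0.556% and 47 or 0.687%). Glu5 and Agrp nuclei were few in some mice. The Day 1 vehicle mice had 10, 47 and 47 Glu5 nuclei and 29, 38 and 15 Agrp nuclei. Single mice moved these counts. The Glu5 count was 35 without FGF1 replicate 2, 28 without FGF1 replicate 3, 43 without vehicle replicate 1 and 16 without vehicle replicate 2. The Agrp count was 48 without vehicle replicate 1, and the unmapped count 82 without FGF1 replicate 1 and 95 without vehicle replicate 2.

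Of the 10 Day 1 genes, 5 had a larger effect in n29 than in unmapped neurons. The 10 were called on the same n29 sums, which favours a larger effect there, so this count is not read as support. The unmapped neurons also held 2180 nuclei whose best match was n29. In CPM of each type's own UMIs, Pgm2l1 was at 239, 260 and 226 after FGF1 and 78.7, 90.4 and 93.7 after vehicle in n29, and at 126, 136 and 101 against 81.6, 88.3 and 77.0 in unmapped neurons. Its effect was thus 0.91 larger on the log2 scale (FDR = 1.28e-05), and 1.40 larger than in Glu5 (FDR = 0.0403). 9530026P05Rik fell from 432, 329 and 520 CPM to 90.6, 90.0 and 177 in n29 and was at 136, 116 and 144 against 83.2, 110 and 81.6 in unmapped neurons, where the groups also did not overlap. The difference of effects was −1.49 against unmapped neurons (FDR = 2.69e-22) and −1.78 against Glu5 (FDR = 5.18e-06). Etv5 was at 67.1, 50.0 and 60.1 CPM against 11.7, 6.24 and 12.1 in n29 and at 26.3, 19.2 and 34.5 against 13.5, 9.86 and 14.9 in unmapped neurons (difference 1.62, FDR = 0.00978). In Glu6 nuclei Etv5 was as high after FGF1, at 52.9, 52.0 and 66.6 CPM, and at 0 in vehicle replicates 2 and 3 (vehicle replicate 1 had too few Glu6 nuclei). Ubash3b (1.10, FDR = 0.0119) and Zkscan16 (−0.92, FDR = 0.0119) also differed from unmapped neurons. Against Agrp neurons none of the 10 genes passed, with differences of 0.50 for Pgm2l1 (FDR = 0.817), −1.27 for 9530026P05Rik (FDR = 0.0753), 2.23 for Etv5 (FDR = 0.388), 0.70 for Ubash3b (FDR = 0.860) and 0.12 for Zkscan16 (FDR = 0.982). Against Glu5, Ubash3b (1.5, FDR = 0.319) and Zkscan16 (−0.37, FDR = 0.880) did not pass either. Nor did Etv5 (−3.43, SE 2.48, FDR = 0.769), which was at 0 in all Glu5 vehicle mice and whose fitted effect was larger in Glu5.

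The other 5 genes had effects in n29 that were not shown to differ from those in unmapped neurons. The differences were 0.34 for Zmym1 (FDR = 0.571), −0.29 for Gfap (FDR = 0.938), 1.74 for S100a10 (FDR = 0.18), 0.76 for Nptx2 (FDR = 0.581) and −0.35 for Itga11 (FDR = 0.828). Zmym1 was at 322, 105 and 199 CPM after FGF1 and 34.0, 58.3 and 28.5 after vehicle in oligodendrocytes too.

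**Figure D5:**
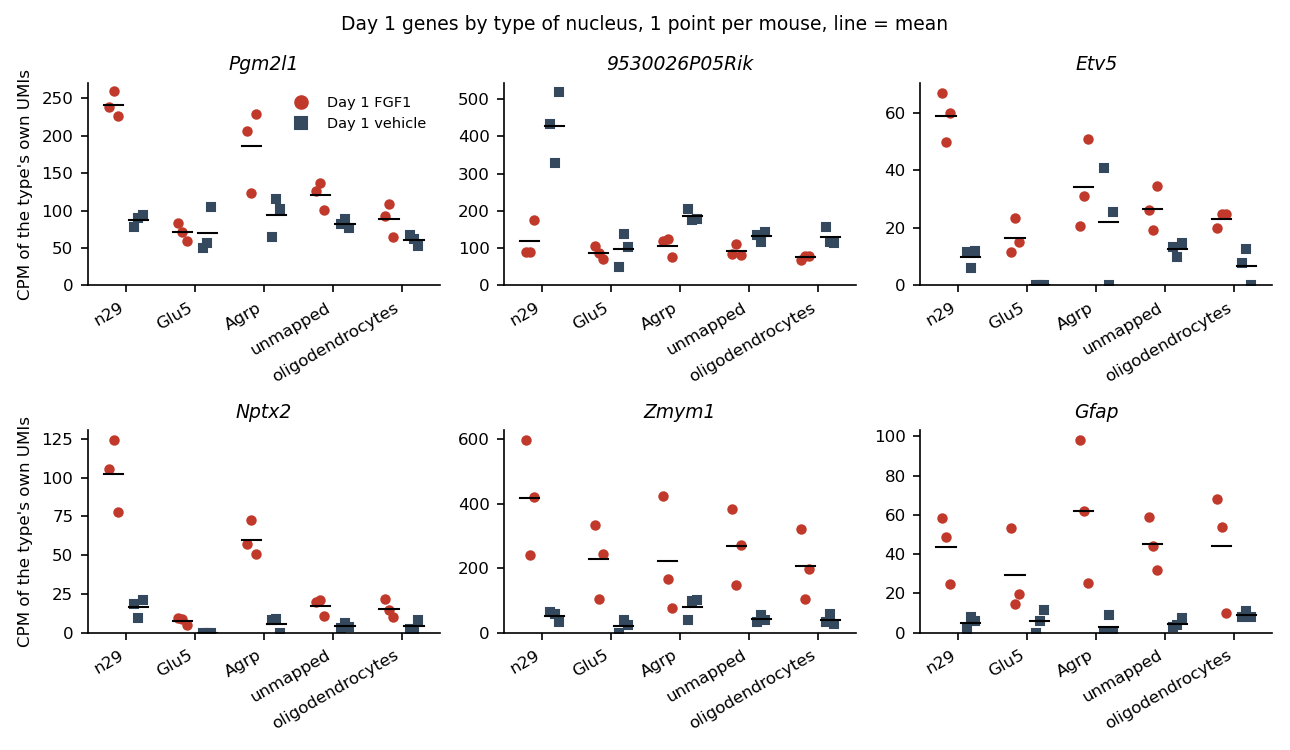
Levels of 6 Day 1 genes (CPM of each type's own UMIs) by mouse in n29, Glu5, Agrp, unmapped neurons and oligodendrocytes of the Day 1 FGF1 and vehicle mice, with a line at each group mean. The group means of Pgm2l1 and 9530026P05Rik differ by over 2 times in n29 and by under 2 times in unmapped neurons, while the points of Zmym1 and Gfap do not overlap in either.

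Further members of the gene lists differed from unmapped neurons. Spred2 (difference of log2 fold changes 0.84, FDR = 0.0282) joined Etv5 among 8 tested genes of MAPK feedback, where 1.34% of all genes were called. Of the 8, 5 had a positive difference, and the lowest was Il17rd (−1.62, not called). Etv5 had been called at Day 1 on the same n29 sums, so this count is not read as support. Fgf1 itself differed by 1.15 (FDR = 0.0337), being at 46.1 ± 9.97 CPM after FGF1 and 16.9 ± 3.84 after vehicle in n29 and at 48.8 ± 10.1 and 37.6 ± 4.47 in unmapped neurons (TMM within each type over all 10 mice). Cpe differed by 0.63 (n29 471 ± 84.9 and 232 ± 2.63, unmapped 347 ± 67.5 and 275 ± 29.8, FDR = 0.000155). Ldb2, of the VMH marker list, differed by 0.48 (n29 574 ± 118 and 371 ± 117, unmapped 256 ± 55.4 and 226 ± 40.9, FDR = 0.00802), and Rora, a nuclear receptor of the circadian clock, by 0.44 (FDR = 0.00135). Of 30 potassium channel genes tested 5 were called, of 24 sodium, calcium and HCN channel genes 2 and of 33 glutamate and GABA receptor genes 2, where 1.34% of all genes were. Cacna2d3 (0.64), Kcnd3 (0.55), Trpc5 (0.47) and Gria3 (0.39) were more positive in n29, and Kcnt2 (−0.69), Gabrg1 (−0.51), Kcnab1 (−0.44), Kcnb2 (−0.42) and Kcnq5 (−0.38) more negative. Of 47 synaptic adhesion genes tested the 4 called were more negative in n29 (0.553% of all genes were), namely Lrrc4c (−0.43), Pcdh15 (−0.35), Opcml (−0.34) and Cntn5 (−0.32).

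The genes with the largest differences from unmapped neurons were mostly of low level. C030034L19Rik was at 37.3 ± 22.1 CPM after FGF1 and 2.57 ± 1.08 after vehicle in n29 and at 7.22 ± 3.08 and 5.13 ± 0.460 in unmapped neurons (difference 3.79, FDR = 8.44e-06). Plk3, a stress-responsive kinase, was at 19.8 ± 1.83 against 2.70 ± 2.65 in n29 and 12.0 ± 3.10 against 11.2 ± 1.99 in unmapped neurons (2.39, FDR = 0.0203). Gm15337 (2.54), Ankrd50 (2.13) and Pgs1 (2.06) followed. On the negative side were Lrtm2 (−2.15), Tmtc4 (−2.06), Itga8 (−2.04), Vmn2r85 (−1.75) and BC030499 (−1.71).

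Against Glu5, another glutamatergic type, several of the largest differences stood beside a difference within Glu5. Sst, the somatostatin precursor, was at 78.6 ± 29.5 CPM after FGF1 and 59.8 ± 33.8 after vehicle in n29, and at 48.3 ± 31.7 and 317 ± 339 in Glu5, where the vehicle mice ran from 72.9 to 704 (difference 2.74, FDR = 9.95e-08). Mpv17l differed by −2.86 (FDR = 0.00101), at 41.7 ± 9.93 and 67.9 ± 8.66 in n29 and 61.9 ± 13.8 and 8.98 ± 8.09 in Glu5. A230065H16Rik (2.87), Nwd2 (2.40) and Rab36 (2.03) were more positive in n29, and B230323A14Rik (−2.78), Adamtsl1 (−2.31), Gm28905 (−1.98) and BC030499 (−1.84) more negative. List members called included Kcnc2 (1.2), Sdk1 (1.14), Gria3 (1.00), Cacna2d3 (1.00), Gabrg3 (0.85) and Nrxn3 (0.77) in one direction and Cntn5 (−1.11), Ntm (−0.84), Kcnip4 (−0.83), Il1rapl1 (−0.79), Cntn6 (−0.76), Pcsk2 (−0.74) and Pcdh15 (−0.63) in the other.

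Against Agrp neurons, the hunger neurons of the arcuate nucleus, Fgf1 differed by 2.10 (FDR = 0.0102; against Glu5 its difference of 1.68 did not pass, FDR = 0.243), with 46.1 ± 9.97 and 16.9 ± 3.84 CPM in n29 and 85.2 ± 22.5 and 137 ± 25.5 in Agrp neurons. Cpe (1.41, FDR = 0.000111) was at 420.0 ± 117 and 575 ± 83.8 in Agrp neurons. Kcnq3 (−2.18), Kcnq5 (−1.95) and Pcdh15 (−1.81) were more negative in n29, and Trpm3 (1.83), Tenm1 (1.56), Scg2 (1.49), Gria3 (1.22), Opcml (1.13), Rora (1.13) and Kcnip4 (1.00) more positive. In all of these but Rora the group means lay further apart, as a ratio, within Agrp neurons than within n29. Kcnq3 was at 713 ± 146 and 719 ± 93.2 CPM in n29 and 733 ± 143 and 161 ± 6.68 in Agrp neurons. Rora was at 977 ± 246 and 599 ± 67.2 in n29 and 300 ± 179 and 426 ± 107 in Agrp neurons. For Kcnq5, an M-channel subunit, n29 was at 458 ± 34.4 CPM after FGF1 and 407 ± 30.4 after vehicle, and Agrp neurons at 796 ± 195 and 157 ± 78.9. L3mbtl3 (2.86), Ogfrl1 (2.48), Rps6ka2 (2.34) and Ammecr1 (2.04) were the other large positive differences, and Sh3pxd2b (−3.74), Nek7 (−3.40) and Cemip (−3.08) large negative ones. Rdh10 was also called lower in n29, with 15 ± 8.88 and 15.8 ± 3.15 CPM in n29 and 57.2 ± 12.1 after FGF1 in Agrp neurons, whose vehicle mice were all at 0. Hcrt, called as well, ranged from 0 to 1819 CPM in the Agrp neurons of the FGF1 mice.

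Since Esr1 marks the ventrolateral VMH, n29 nuclei with at least 1 Esr1 UMI were set against those without, within each mouse. Esr1 UMIs were found in 160 n29 nuclei (7.49%), from 3.45% to 18.3% of the n29 nuclei of a mouse, against 7.10% in Glu5 and 14.1% in the GABA types. The share in n29 was close to that of Glu5 and below that of the GABA types, and the split is not read as one between Esr1 neurons and others. Positive nuclei were also deeper than negative ones in 9 of 10 mice. edgeR called 5 of 5740 genes (0.0871%), all higher in positive nuclei, but the direction rested on the cut and the filter. With at least 2 Esr1 UMIs 183 genes were called, all lower, and with no low-count filter 348, of which 346 were lower. Kcnq5 was at 697 ± 232 CPM against 440 ± 54.3 (log2 0.63, SE 0.10, FDR = 3.57e-06, higher in 9 of 10 mice), and kept its call (FDR = 0.0269) when negative nuclei were matched on depth. Htr2c, the serotonin receptor 2C, was at 267 ± 109 against 155 ± 40.8 (log2 0.62, FDR = 0.0378, 9 of 10 mice), but did not pass after matching, where its log2 difference was 0.57 (FDR = 0.851). Il1rap (log2 1.10, FDR = 0.00759, 9 of 10 mice), Pdzrn4 (0.39, FDR = 0.0448, 6 of 10) and Nrxn3 (0.33, FDR = 0.0383, 9 of 10) were the others. They did not pass after matching either, with log2 differences of 0.98, 0.47 and 0.36. The count was 1 without Day 5 vehicle mouse 28, and 2 or 3 without any of 7 others (all but Day 1 vehicle replicates 2 and 3).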

How the data were processed

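The authors deposited UMI counts per gene and nucleus and a metadata table with mouse, batch, cell type and the fraction of each nucleus's label match, made with Cell Ranger 1.2 and Seurat from hypothalamic punches of 2 mm (10x 3′ libraries, intronic reads counted on GRCm38/mm10). The submitters' processing notes also list GRCh38. The authors kept nuclei with 400 to 4000 genes and passed labels on at over 75% confidence. No doublet caller was run here on the deposited nuclei. The fraction (label confidence) is used as deposited.

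Counts of n29 nuclei were summed per mouse and tested with edgeR 4.0.16 (R 4.3.3, quasi-likelihood, TMM scaling, filterByExpr, Benjamini-Hochberg FDR under 0.05), within Day 1, within Day 5 and over all 10 mice for day by treatment. Comparisons between types, and the Esr1 split (with Esr1 left out), had the mouse as a block. Alternatives included DESeq2 1.42.0. Shares of nuclei were compared by exact permutation. The steps were checked on simulated counts with 200 changed genes of known fold. The number of sample columns left unmatched was 0. A level is CPM, scaled by TMM where stated. The depth of the n29 sums sets the precision. Without a block, p-values rest on the spread between mice of a group. With the mouse as a block they rest on the spread of the differences within mice. In both cases edgeR shares the spread over genes, so a very small FDR does not show that the mice lay close together. Replicate numbers did not pair the mice.

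The members and the 25 gene lists were chosen with earlier results of these data known. Named are the 10 largest changes per direction and day among called genes whose groups do not overlap (all if fewer), 5 per direction for the other tests, called list members, the highest and lowest of a list, and Nr5a1, Adcyap1, Slc17a6, Esr1, Lepr and Fgfr1. A few genes that this rule names are not reported here. Genes under the filter, and other genes given with values only, were chosen after their values were seen. Positions are from GENCODE vM21 on GRCm38. Apoa1bp had no position there. Whether counting used strand is not given in the sources used here.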

Additional observations from a re-analysis of the deposited data

Results flagged for a closer look

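The results here concern FGF1 effects that differed between n29 nuclei and 3 groups of other neurons of the same Day 1 mice, by the test of the difference itself. Such genes numbered 66 against Glu5, 85 against Agrp neurons and 169 against unmapped neurons. Against Glu5, the n29 effect was 1.40 higher on the log2 scale for Pgm2l1 and lower for 9530026P05Rik (difference −1.78). Against unmapped neurons the difference was 1.62 for Etv5, 1.10 for Ubash3b, 0.91 for Pgm2l1, −1.49 for 9530026P05Rik and −0.92 for Zkscan16. These 5 genes had been called at Day 1 on the same n29 sums, which favours a larger effect in n29. None of them passed against Agrp neurons, and Etv5 (difference −3.43), Ubash3b and Zkscan16 did not pass against Glu5. Groups of 2 or 3 mice are too small for a test for single outlying mice, and no such test was made.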

How the results depend on the processing

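None of the 10 genes called at Day 1 or the 11 named called genes of Day 5 turned its direction under any alternative that gave it a value. The groups did not overlap in any of these genes, which made a reversal unlikely from the start, so this is not read as support. The other called genes were not followed. At Day 1, the 10 called genes gave 103 results on the same side of the threshold and 63 that no longer passed, and at Day 5 the named called genes gave 78 and 66. Nptx2 and Zmym1 passed under 14 of 17 settings. The cause of each change below was not tested. The settings with added unmapped nuclei, with a higher confidence, without nuclei with glial UMIs and with batch in DESeq2, and batch for day by treatment, were chosen after seeing the data. Day 1 calls numbered 10 in the reported fit, 40 with DESeq2, 16 with RLE scaling, 201 with no low-count filter, 68 with all 4 groups in one fit, 2 with batch as a block, 4 with batch in DESeq2, 5 with unmapped nuclei that matched n29 best added, 33 at a label confidence of at least 0.95, and 0 to 101 with 1 mouse left out. Replicate numbers recur in both Day 1 groups, but same-number mice correlated at −0.182, −0.287 and 0.261, so the numbers were not taken to pair the mice. With a replicate block 23 genes were called. Day 5 calls (26) were 4 with DESeq2, 100 with no filter, 0 with all groups in one fit (333 at an unadjusted p under 0.05), 166 with batch as a block (47 higher, 119 lower), 1 with batch in DESeq2, 15 with the added unmapped nuclei, and 10 to 177 with 1 mouse left out. Day by treatment calls (0) were 1 with DESeq2, 46 with no filter and 0 to 1 with 1 mouse left out.

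Against Glu5 the count of 66 was 39 with no filter and 16 to 99 with 1 mouse left out, against Agrp neurons 48 to 83, and against unmapped neurons 82 to 164. The 5 Esr1 calls became 348 with no filter (346 lower), 2 with matched depth, 183 at 2 or more Esr1 UMIs (all lower), and 1 to 6 with 1 mouse left out. The Day 1 share difference ran from −1.84 to 0.155 points and the Day 5 one from −4.37 to −0.69 with 1 mouse left out. Against all neurons the differences were −1.85 and −3.07, and with the added unmapped nuclei −3.88 and −2.09. With 71 to 497 nuclei a mouse and 2 or 3 mice a group, simulated 2-fold changes were found at 10% at Day 1 and 35% at Day 5, and depth was not varied on its own. A batch term left few residual degrees of freedom.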
